A study of Mus musculus with 6 samples.

Results

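Features labelled intergenic were the largest class in a deposited table of long non-coding RNAs (lncRNAs) from RAW264.7 cells, a mouse macrophage line. They were chosen by that label alone, in lower case, and number 10325 of the 24817 features listed: 9534 carry NONCODE identifiers and 791 carry Ensembl identifiers. All cells were first stimulated for 24 h with lipopolysaccharide (LPS), a bacterial cell wall component that activates macrophages. The medium was then replaced by an extract of poly(methyl methacrylate) (PMMA) bone cement, either plain (LPS_PMMA, 3 libraries) or loaded with enoxaparin sodium, a low-molecular-weight heparin used against clotting (LPS_ES_PMMA, 3 libraries). The columns of the table call the plain group LPS, and the sample titles, which were followed here, call it LPS_PMMA. No library of cells without LPS or without cement extract was among the samples used here. The labels do not say whether each library had a culture of its own, so the p-values measure only the spread between these libraries.

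An intergenic lncRNA is a long transcript without a protein product whose gene lies between protein-coding genes. Many are transcribed by RNA polymerase II, spliced and polyadenylated like messenger RNAs, and most are present at low levels and in few cell types. In macrophages several such RNAs change when Toll-like receptors are triggered, and some have been tied to the control of cytokine and interferon-stimulated genes.

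For 8 of the 139 features whose level differed between the groups a transcript sequence was at hand, since these 8 carry Ensembl identifiers. The first 200 bases of 3 of them are shown, the pair with the largest rise and the one with the largest fall, 5′ to 3′ and with nothing capitalised because no element was marked. They are from GENCODE M21 on mm10. Gm34816 lies at chr1:139408278-139413864 on the plus strand and is 502 nt long when spliced. Gm39323 lies at chr9:44011735-44041059 on the minus strand, with 2942 nt. Gm37703 lies at chr2:24231868-24233651 on the plus strand, with 1784 nt.
Gm34816: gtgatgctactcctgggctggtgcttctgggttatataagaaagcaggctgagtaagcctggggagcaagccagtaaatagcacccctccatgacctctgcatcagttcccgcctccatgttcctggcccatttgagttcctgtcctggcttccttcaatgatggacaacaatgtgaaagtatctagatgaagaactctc
Gm39323: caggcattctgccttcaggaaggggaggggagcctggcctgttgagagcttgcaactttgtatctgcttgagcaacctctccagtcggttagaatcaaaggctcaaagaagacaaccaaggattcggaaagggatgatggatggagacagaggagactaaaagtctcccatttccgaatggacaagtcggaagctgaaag
Gm37703: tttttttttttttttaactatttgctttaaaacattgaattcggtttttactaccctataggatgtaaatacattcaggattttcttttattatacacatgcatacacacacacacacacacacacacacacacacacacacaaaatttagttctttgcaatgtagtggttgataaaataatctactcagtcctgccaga
The Gm37703 stretch opens with a run of t and holds a long repeat of ac.

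The label was checked against the positions before any value was read as that of an intergenic RNA. Of the 791 Ensembl features, 788 are in GENCODE M21 and 781 have the same start and end there, so the listed positions of annotated features are those of mm10. The 2305 transcripts that the authors assembled from their reads behave otherwise. For 210 assembled loci on 20 chromosomes both ends met those of an annotated mm10 transcript after 1 common displacement (ends within 5 bp of each other), backed by at least 1 other locus within 25 Mb at the same displacement. Its size was 14.2 to 1217 kb, and for 0 of the 210 was it near 0. The table also names a scaffold that belongs to the mouse assembly after mm10. Assembled and annotated features are therefore listed on different coordinate systems. The submitters' processing notes name the build mm10, but none of the sources used here says on which of these systems the reads were counted.

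The displacement of these anchor loci was then applied to the 3838 features (37.2%) that lie between 2 anchors with the same displacement within 50 bp. Overlap was counted over the whole span from listed start to end, introns included. A spliced feature can thus count without sharing an exonic base with the gene. At the positions as listed, 29 of the 3838 (0.756%) overlapped an exon of a protein-coding gene. Moved by the displacement of their anchors, 1744 (45.4%) did, and moved by the same distance in the opposite direction 1018 (26.5%) did. The difference between the directions grew with abundance. Among features with 3 to 10 reads the overlap was 38.5% when moved and 24.1% in the opposite direction, and among the 80 features with over 1000 reads it was 91.3% and 28.7%, against 0% as listed. The features over a coding exon after the move held 84.5% of the reads of the 3838, and those over one in the opposite direction held 18.9%. Without NONMMUT118967.1, which alone holds more reads than any other, these shares were 57.3% and 52.2%, because NONMMUT107430.1 overlaps Nckap1 in the opposite direction and no coding exon when moved. For the abundant features the label and the data thus disagree. They are called features labelled intergenic throughout. A gene named "at the moved position" is a coding gene with an exon that the span of the feature, introns included, overlaps after the move. Which RNA gave the reads was not tested. For a further 1524 features with an anchor within 5 Mb but without agreement of both sides, a gene is given as that of the less certain move. Where anchors on both sides were in reach and disagreed, each displacement was tried, and a gene met under either is given. Of the 1524, 640 met a coding exon in this way, and no share for the opposite direction is given for them.

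**Figure D1:**
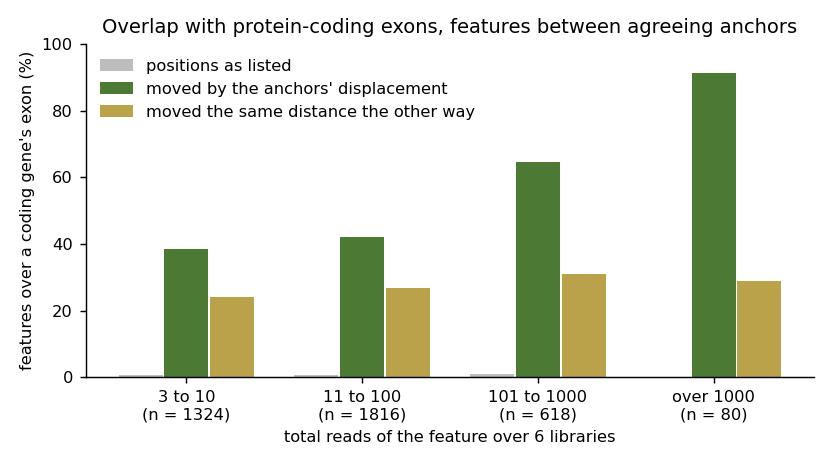
Percent of features labelled intergenic whose span, introns included, overlaps an exon of a protein-coding gene of GENCODE M21. They are grouped by total reads over the 6 libraries, for the 3838 features between agreeing anchors. Bars give the positions as listed, moved by the anchors' displacement, and moved the same distance the other way; the moved bar rises from 38.5% to 91.3% while the opposite one stays between 24.1% and 30.9%.

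Most features were scarce. The median length was 1125 nt (quartiles 739 and 1891), and 7045 (68.2%) are listed with a length equal to their span, as unspliced transcripts are. FPKM, reads per kilobase of listed length and per 1000000 reads, had a median of 0.846 over features, each averaged over the 6 libraries. Of all 10325, 4704 (45.6%) reached a mean FPKM of 1, 583 (5.65%) reached 10 and 54 (0.523%) reached 100. The median feature had 19 reads over 6 libraries, and 4601 (44.6%) had a read in every library. Against them, the 3767 features labelled intronic_sense had a median FPKM of 1.04 and 38 reads, and the 578 assembled features that the table labels Intergenic LncRNA had 8.42 and 118. Overlapping features were frequent: the 10325 fall into 8076 loci, 3392 share a locus with another, and 1 locus holds 40.

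A single feature dominated the class. NONMMUT118967.1, at chr5:104586559-104589005 (2447 nt), had FPKM values of 34451, 29341 and 39047 in the LPS_ES_PMMA libraries and 12722, 21553 and 22404 in LPS_PMMA. It held 34.5% to 58.2% of all reads of the class in a library. At the moved position lies Spp1, which encodes osteopontin, a secreted phosphoprotein that macrophages make in quantity. Scaled to counts per 1000000 reads (CPM), the groups were 106961 ± 27485 and 77108 ± 8800 (SD, n = 3 each), which the edgeR quasi-likelihood test did not separate (log2 fold change 0.47 ± 0.47 SE, adjusted p = 0.601).

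The next 4 features by mean FPKM, with 2571 to 984, did not pass the test either. NONMMUT107430.1 on chromosome 2, over Nckap1 (a subunit of the WAVE actin regulatory complex) when moved the other way, had a log2 fold change of -0.61. NONMMUT147258.1 on chromosome 2 had -1.21 (edgeR adjusted p = 0.0907); Ctsz, which encodes the lysosomal protease cathepsin Z, and Nelfcd lie at its position by the less certain move. NONMMUT142621.1 on chromosome 13, with no anchor near, had 1.07 (edgeR adjusted p = 0.0824) and groups that did not overlap, at 771, 726 and 857 CPM against 504, 331 and 290. NONMMUT107347.1 on chromosome 2 had -0.26. Of these 4 it alone had groups that overlapped in CPM, and 30.8% of all features tested had groups that did not.

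In every LPS_ES_PMMA library the class held a larger share of the table's reads than in any LPS_PMMA library. They were 23.0%, 30.9% and 23.0% against 10.9%, 16.4% and 18.9%, or 25.6% ± 4.59 against 15.4% ± 4.07 (SD, n = 3 each). The exact two-sided permutation test gave p = 0.1, the smallest that 3 against 3 libraries allow. The order turned once the 5 features of highest FPKM in the table were left out, of which NONMMUT118967.1 is 1: the shares were then 30.8% ± 2.16 and 34.1% ± 1.30. Without the 2 most abundant features of the class alone they were 12.3% ± 3.49 and 8.60% ± 2.28 (exact permutation p = 0.2).

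The number of features detected depended on the reads asked for. At least 1 read was found for 8636, 7624 and 8179 features in LPS_ES_PMMA and for 6806, 7353 and 7622 in LPS_PMMA, with no overlap between the groups. At least 5 reads were found for 5267, 3970 and 4523 against 3499, 3900 and 4115, where the groups overlap (exact two-sided permutation p = 0.2). The libraries differ in depth, from 1123551 table reads in LPS_ES_PMMA replicate 2 to 3697638 in LPS_PMMA replicate 1. Thinned to 1123551 reads each, the expected numbers were 7115 ± 508 and 5666 ± 594 (SD, n = 3 each; exact two-sided permutation p = 0.1), with no overlap between the groups. The 5 features of highest FPKM took 46.6% to 78.2% of a library's reads. With these left out and the rest thinned to equal depth, the numbers were 7671 ± 130 and 6749 ± 280. Of the 10325 features, 251 had reads in all LPS_ES_PMMA libraries and in no LPS_PMMA library, with at most 54 reads each, and 55 had the reverse. The same counts were not made over the whole table, so they cannot be read as particular to the class.

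**Figure D2:**
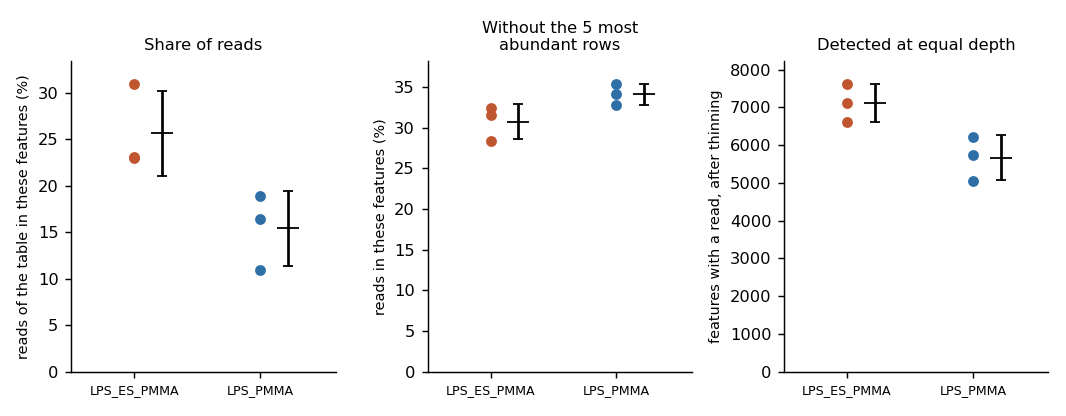
Share of the table's reads in features labelled intergenic (left), the same share without the 5 features of highest FPKM in the table (middle), and the number of these features with a read after thinning to equal depth (right). Points are libraries, and the marks beside them are means with SD; the share is higher in LPS_ES_PMMA on the left (25.6% against 15.4%) and lower in the middle (30.8% against 34.1%).

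The comparison of LPS_ES_PMMA with LPS_PMMA asks what enoxaparin sodium changes in LPS-stimulated macrophages under cement extract. A filter on low counts left 3033 of the 10325 features, and 139 of these passed the edgeR quasi-likelihood test at an adjusted p of 0.05, with 76 higher and 63 lower in LPS_ES_PMMA. This is 4.58% of those tested, and 422 of the 8873 features tested over the whole table passed (4.76%), with 2.18% higher and 2.58% lower. The share of calls in the class was thus near that of the table. The median log2 fold change of the tested features was 0.14, against 0.03 over all features tested. Every called feature had groups that did not overlap, as did 918 of the 3033 tested (30.3%) and 30.8% of all features tested.

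The direction of the calls differed with abundance, in the class as in the whole table. Of tested features with at least 190 reads over the 6 libraries, 31 were higher and 43 lower (7.28% called), and of those with at most 85 reads, 24 were higher and 7 lower (3.02%). Over the whole table the same read ranges had 90 higher and 155 lower (7.28%), and 53 higher and 25 lower (3.08%). The filter used unscaled table totals, so fewer reads sufficed in LPS_ES_PMMA replicate 2, the smallest library. Scarce features could thus enter more easily when high in LPS_ES_PMMA. The excess of higher calls among them cannot be told apart from this. With a mean FPKM of at least 1 as the filter, the class had 27 higher and 39 lower, and with no filter on low counts 26 and 32. Called lower features had a median FPKM of 9.55, and called higher features 3.48. Of 195 features with over 1000 reads, 22 were called (11.3%), 16 of them lower, and 66 of the 687 such features over the whole table were called (9.61%), 50 of them lower. Joined by overlap into loci, 138 loci were called, 77 higher and 61 lower, beside 5.18% of everything tested in that fit (2.42% higher and 2.76% lower).

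The scale and the single libraries bear on these counts. Scaled by column totals in place of TMM factors, the split was 117 higher and 20 lower, with the median of all features moved to 0.82; with the totals implied by FPKM it was 88 and 28, with a median of 0.45. Of the 76 higher and 63 lower features, 75 and 20 still passed with column totals and 67 and 27 with the totals implied by FPKM, where 135 of the 139 could be fitted. The TMM factors themselves moved with the groups, from 0.983 to 1.82 in LPS_ES_PMMA and from 0.559 to 0.977 in LPS_PMMA, and their part in the calls was not tested beyond these scales. Leaving out any 1 of the 6 libraries reduced the calls to between 13 and 45.

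**Figure D3:**
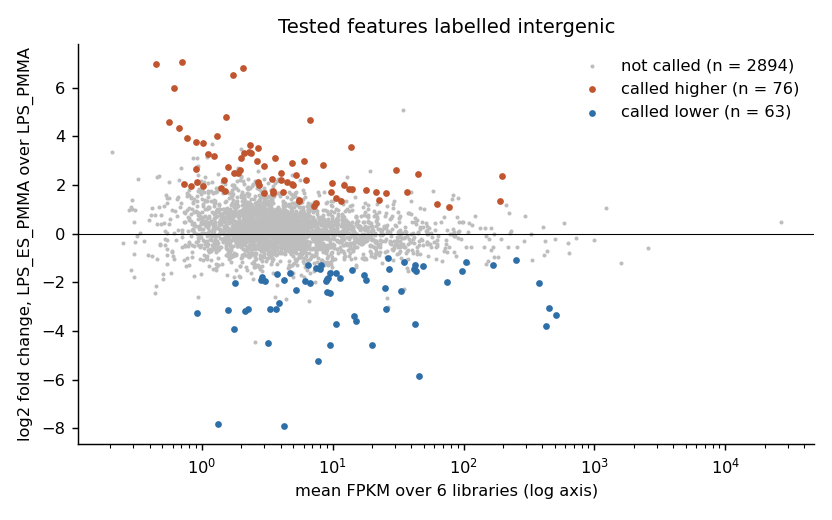
Log2 fold change (LPS_ES_PMMA over LPS_PMMA) against mean FPKM on a log axis for the 3033 tested features labelled intergenic. The 76 features called higher lie mostly at low FPKM (median 3.48), and the 63 called lower reach further to the right (median 9.55).

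Of the 139, 9 features also passed in each of the 6 fits that leave out 1 library, 7 lower and 2 higher, where 32 of the 8873 in the table did (0.361%, with 0.282% lower and 0.0789% higher). The 7 lower ones are described first, by the gene at the moved position.

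A group of neighbours on chromosome 4 fell by the most CPM. NONMMUT117693.1, at chr4:144938256-144950762 (12507 nt), had 1057, 1165 and 1287 CPM in LPS_ES_PMMA and 17524, 16448 and 15277 in LPS_PMMA. The groups are far apart and each is narrow, and the log2 fold change was -3.81 ± 0.33 (SE, edgeR adjusted p = 0.00279). NONMMUT117695.1 and NONMMUT117696.1 overlap or adjoin it and had log2 fold changes of -3.70 and -3.41, so the 3 may share reads and are not independent. At their position, by the less certain move, lies Tnfrsf1b, which encodes a receptor for tumour necrosis factor.

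A second group on chromosome 11 lies at the moved position over Slfn4, a schlafen family gene known to be induced by interferon in myeloid cells. NONMMUT084040.1, at chr11:83077556-83079104 (1549 nt), stood at 206, 219 and 256 CPM with enoxaparin and at 2058, 2592 and 2372 without (log2 fold change -3.37 ± 0.27 SE, edgeR adjusted p = 0.00247). NONMMUT084041.1, which starts after its end, had 356, 238 and 299 CPM against 1931, 2769 and 2715 (-3.05 ± 0.31). In both, every LPS_PMMA library is far above every LPS_ES_PMMA library.

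The steepest fall among the 9 was on the far end of chromosome 2. NONMMUT110310.1, at chr2:173049287-173050935 (773 nt), had 12, 3 and 4 reads with enoxaparin and 292, 284 and 289 without, and its log2 fold change was -5.87 ± 0.40 (SE, edgeR adjusted p = 0.00206). The gene at its position, by the less certain move, is Zbp1, a cytoplasmic sensor of Z-form nucleic acids that can start cell death. NONMMUT122964.1, at chr6:121231803-121233751 (1949 nt), had 6.31, 3.04 and 5.05 CPM against 72.3, 65.3 and 55.6 (log2 fold change -3.70 ± 0.34 SE, edgeR adjusted p = 0.00282). Its anchors on both sides put it over Usp18, the protease that removes the ubiquitin-like modifier Isg15 from proteins.

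The 2 higher features lie elsewhere. NONMMUT137610.1, at chrX:166130526-166131759 (1234 nt), had 80.9, 89.2 and 80.9 CPM with enoxaparin and 15.7, 13.4 and 11.6 without, which is a log2 fold change of 2.62 ± 0.26 (SE, edgeR adjusted p = 0.00374). By the less certain move it overlaps Prps2, an enzyme that makes the sugar phosphate used in nucleotide synthesis. NONMMUT076413.1, at chr1:136456709-136457310 (602 nt), had 21.1, 15.7 and 22.6 CPM against 1.47, 1.57 and 1.81 (3.57 ± 0.34, edgeR adjusted p = 0.00343). It has no anchor to move it by, and the nearest coding gene as listed, 9.03 kb away, is Kif14, a mitotic kinesin.

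**Figure D4:**
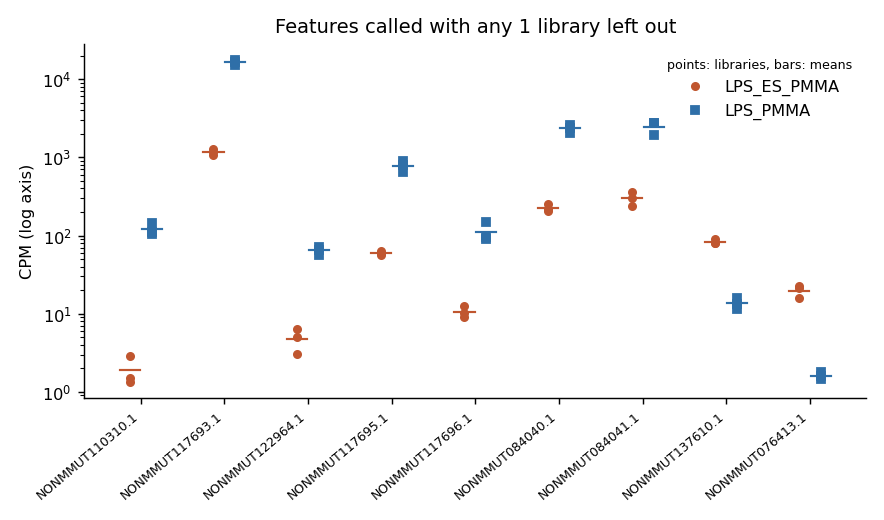
CPM on a log axis for the 9 features labelled intergenic that pass the edgeR test in all 6 fits with 1 library left out, ordered by log2 fold change. Points are libraries and bars are group means (n = 3 each); in the first 7 every LPS_PMMA library lies above every LPS_ES_PMMA library, and in the last 2 below.

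Features were also grouped by lists of protein-coding genes, first by the nearest gene within 50 kb of the listed position and then by the gene at the moved position. Over all features tested, 2.18% were called higher and 2.58% lower, with a median log2 fold change of 0.03. Of 111 genes of the RIG-I and interferon response, 49 features had one nearest and 23 of these were tested. Of the 23, 2 were higher and 7 lower (median log2 fold change -0.63). The 2 higher ones, NONMMUT106142.1 and NONMMUT106143.1, lie next to Ifit1, an interferon-induced RNA-binding protein, and have no anchor to move them by. At the moved position between agreeing anchors, 15 features were over a gene of the list, 8 were tested, and 0 were higher and 7 lower, with a median of -3.09. The other 4 beyond the Slfn4 pair and the Usp18 feature included NONMMUT012061.2 over Ifi35, an interferon-induced protein, with -3.09, and NONMMUT010936.2 over Lgals9, which encodes galectin-9, and Nos2, the inducible nitric oxide synthase, with -1.92. NONMMUT012061.2 and NONMMUT010936.2 each passed in 2 of the 6 fits that leave out 1 library. The 1 tested feature that was not called, NONMMUT011080.2 over Slfn9, had 0.35. With the less certain move admitted, NONMMUT110310.1 over Zbp1 and NONMMUT144625.1 over Parp14 (-3.11) made it 9 lower of 10 tested. Several of these share a gene: 4 of the 7 are over Slfn4.

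Promoters are shown for 2 of these genes, since several features of the class move together over Slfn4 and since Lgals9 alone among the genes below held the searched interferon element. They are 250 bases before to 50 after the start in RefSeq on GRCm38.p6, 5′ to 3′ on the gene's strand. Capitals mark matches to the core of the interferon-stimulated response element (GAAA, any 2 bases, GAAA) on either strand. Lgals9 is at chr11:78984875-78985174 on the minus strand and Slfn4 at chr11:83174936-83175235 on the plus strand.
Lgals9: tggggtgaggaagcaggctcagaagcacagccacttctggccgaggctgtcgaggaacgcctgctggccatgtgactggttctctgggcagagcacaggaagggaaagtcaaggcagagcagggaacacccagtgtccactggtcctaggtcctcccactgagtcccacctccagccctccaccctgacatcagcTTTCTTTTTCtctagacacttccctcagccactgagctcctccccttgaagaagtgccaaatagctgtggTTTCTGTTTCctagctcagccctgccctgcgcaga
Slfn4: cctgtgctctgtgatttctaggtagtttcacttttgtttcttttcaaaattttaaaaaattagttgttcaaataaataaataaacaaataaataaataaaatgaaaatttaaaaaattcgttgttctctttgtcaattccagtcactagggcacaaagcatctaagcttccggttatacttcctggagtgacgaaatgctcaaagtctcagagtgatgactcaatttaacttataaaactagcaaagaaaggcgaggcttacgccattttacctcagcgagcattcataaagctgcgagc
The Lgals9 window holds 2 matches and the Slfn4 window 0. Of 19 genes at the moved position of called lower features, 14 had a promoter in the table and 1 of them held the element, where 3.99% of all 27025 promoters did. The PU.1 core GAGGAAGT was in 2 of the 14 (3.69% of all) and the TATA box TATAAA in 2 (15.7% of all). Of 15 genes for called higher features, 9 had a promoter, and 0, 0 and 1 of these held the 3 motifs. Among the Ensembl features of the class, 213 of 747 symbols had a promoter, and 4.23%, 4.23% and 19.2% held the 3 motifs.

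Genes of the inflammatory LPS and NF-kB response were read in the same way. Of 12 tested features whose nearest gene was on the list, 1 was lower: NONMMUT139170.1, 39.0 kb from Ptgs2, which encodes the prostaglandin-forming cyclooxygenase induced by LPS, with 3, 1 and 0 reads against 13, 32 and 42. The median over the 12 was 0.12. Over all features tested, 2.58% were called lower. At the moved position between agreeing anchors, 8 were tested, 2 were lower and 7 had a log2 fold change below 0 (median -1.05). The 2 were NONMMUT010936.2, counted above for Lgals9 as well, and NONMMUT108924.1 over Ptges, a prostaglandin E synthase, with -1.51. With the less certain move admitted, NONMMUT113826.1 over Csf1, the macrophage growth factor, with -1.96, and NONMMUT107885.1 over the cytokine gene Il1a, with -3.94, were also lower. The Ptges and Csf1 calls missed the threshold whichever 1 library was left out. They also missed it with column totals and with the totals implied by FPKM. The Il1a call rested on 2, 0 and 2 reads against 17, 22 and 14. It and the call of NONMMUT139170.1 each passed in 1 of the 6 fits that leave out 1 library. NONMMUT084048.1 over the chemokine gene Ccl3 had 1.70 and did not pass (edgeR adjusted p = 0.40).

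The other lists held few calls, beside the 4.76% called over all features tested. Of stress response genes, 0 of 5 tested features were called by the nearest gene and 1 of 7 at the moved position, NONMMUT100889.1 over the cell cycle inhibitor gene Cdkn1a, with a log2 fold change of -2.43. The Cdkn1a call missed the threshold whichever 1 library was left out, with column totals and with the totals implied by FPKM. Of macrophage identity and osteoclast genes, 0 of 7 were called at the moved position, with 5 below 0 and 2 above. NONMMUT108341.1 over Cebpb had -0.70 and NONMMUT124884.1 over Tyrobp had -0.32. The 2 above 0 were NONMMUT118967.1 and NONMMUT053463.2, both over Spp1. NONMMUT053463.2 had 0.70 (edgeR adjusted p = 0.141) and groups that did not overlap, at 1676, 1919 and 1866 CPM against 1105, 1100 and 1154. Genes of alternative activation had 3 tested features by the nearest gene and markers of other cell types had 2, with 0 called in both. Of proliferation genes 0 of 4 were called by the nearest gene, and the only one tested at the moved position, NONMMUT108253.1 over Mybl2, had 3.15 and did not pass (edgeR adjusted p = 0.066).

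Features that bear the name of a known lncRNA were few in the class. Of the lists of named lncRNAs, those described in macrophages matched 5 features, ubiquitous or imprinted ones 3 and microRNA hosts 2, while snoRNA hosts and small structured RNAs matched 0. The only one tested was Lncpint, a target of the tumour suppressor p53, with 77 reads and a log2 fold change of 0.11 (edgeR adjusted p = 0.903). Mirt1 had 33 reads over the 6 libraries and did not pass the filter.

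Some called features lay in runs. At least 3 called features with gaps of under 100 kb formed 7 runs that held 28 of the 139. The longest, at chr5:105921577-105962888, held 19 tested features, all with a log2 fold change below 0 (-2.63 to -0.34), of which 7 were called. Summed over the 19, the CPM were 848, 1115 and 1146 with enoxaparin and 2503, 2409 and 2046 without, so each plain-cement library was above each enoxaparin library. The called feature with the most reads there, NONMMUT119024.1, is over Lrrc8d at the moved position, a subunit of the volume-regulated anion channel, while the other 6 are over no coding exon. The runs on chromosomes 4 and 11 are those over Tnfrsf1b and Slfn4. Summed in the same way, the run on chromosome 4 had 1250 ± 110 CPM against 17434 ± 1296 (SD, n = 3 each), and the one on chromosome 11 had 532 ± 57.9 against 4854 ± 725.

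The other 4 runs were higher in LPS_ES_PMMA, each of 3 features, and none has an anchor to move it by. The one at chr11:20177472-20190124 had 93.7, 85.6 and 119 CPM against 25.1, 25.2 and 31.1. The one at chr3:51573472-51582847 had 281, 233 and 279 against 64.4, 74.0 and 95.7, and it includes the Ensembl transcript of 5430433H01Rik. The run next to Ifit1 at chr19:34655091-34661955 had 47.9 ± 10.5 against 8.71 ± 4.05, and that at chr9:81510308-81516169 had 53.3 ± 0.897 against 15.7 ± 3.62 (SD, n = 3 each). By chromosome, 15 of 252 tested features were called on chromosome 11 (5.95%), 6 of them higher and 9 lower. Chromosome 9 held 14 calls among 140 tested (10.0%), 12 of them higher. Chromosome 4 held 13 among 176 (7.39%), 11 of them lower, and chromosome 5 held 11 among 187 (5.88%), 10 of them lower. Chromosome 19 held 7 among 93 (7.53%), 5 of them higher, and chromosome 3 held 8 among 108 (7.41%), 7 of them higher. The share in the class as a whole was 4.58%. No test compared the chromosomes. Of all features in the class, the most lie on chromosomes 2 (775) and 11 (733), and 4 lie on Y.

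**Figure D5:**
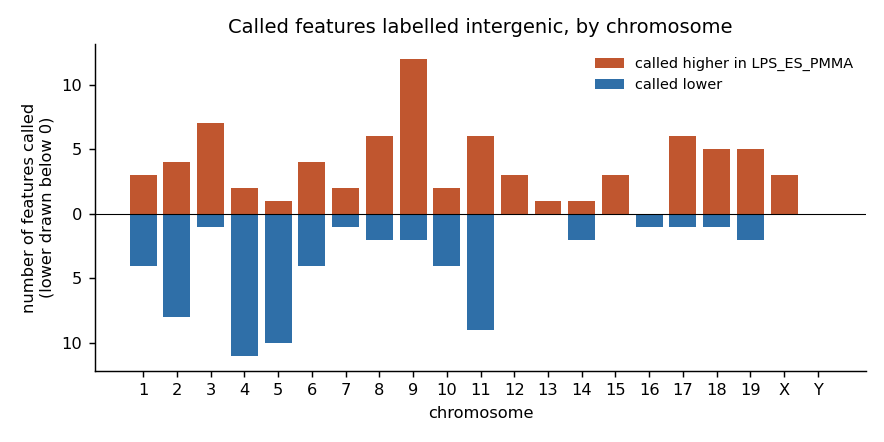
Number of features labelled intergenic that were called higher (above the line) and lower (below) in LPS_ES_PMMA on each chromosome. The numbers are not divided by the features tested; chromosome 11 has 6 higher and 9 lower and chromosome 9 has 12 and 2, while chromosomes 4 and 5 have 2 and 1 higher against 11 and 10 lower.

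Some called features had reads in 1 group alone, so only a bound on their fold change can be given. NONMMUT039936.2, at chr2:131103484-131104613 and over Pank2, a pantothenate kinase, at the moved position, had 0 reads in every LPS_ES_PMMA library and 32, 21 and 25 in LPS_PMMA. Against 3 counts over the group with none, it was at least 32.1-fold lower (edgeR adjusted p = 0.0139). A better covered feature over Pank2 when moved, NONMMUT039935.2 with 221 reads, went the other way. Its log2 fold change was 1.31 and it was not called (edgeR adjusted p = 0.0779). NONMMUT032074.2 on chromosome 18, over Arap3 at the moved position, had 24, 25 and 26 reads in LPS_PMMA alone and was at least 30.8-fold lower. NONMMUT039936.2 missed the threshold when LPS_ES_PMMA replicate 1, LPS_ES_PMMA replicate 3 or LPS_PMMA replicate 2 was left out, and NONMMUT032074.2 without LPS_PMMA replicate 2. In the other direction NONMMUT031052.2, at chr17:87454941-87459317, had 21, 10 and 23 reads with enoxaparin and 0 in each library without, at least 14.6-fold higher (edgeR adjusted p = 0.0183). NONMMUT028032.2 (12, 18 and 12 reads), NONMMUT109565.1 (14, 11 and 11) and NONMMUT128460.1 (12, 4 and 10) also had none in LPS_PMMA. NONMMUT031052.2 passed in 1 of the 6 fits that leave out 1 library. NONMMUT028032.2, NONMMUT109565.1 and NONMMUT128460.1 passed in 0 of them.

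Among the other steep rises and falls the counts were small on 1 side. NONMMUT119114.1 on chromosome 5 had 24, 9 and 13 reads with enoxaparin and 0, 0 and 1 without, a log2 fold change of 4.79. NONMMUT134453.1 and NONMMUT132615.1, both on chromosome 9, had 27, 8 and 24 against 0, 0 and 2 (edgeR adjusted p = 0.0276) and 41, 14 and 12 against 0, 0 and 3 (0.0429). These 3 features are over no coding exon at a moved position, the last pair for want of an anchor. NONMMUT059194.2 on chromosome 6, NONMMUT076425.1 on chromosome 1 and NONMMUT023559.2 on chromosome 15, with no anchor either, had log2 fold changes of 3.76, 3.72 and 3.62 from at most 20 reads in a library. Each of the 6 missed the threshold whichever 1 library was left out.

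Of the falls, NONMMUT079221.1 on chromosome 1 had 4, 0 and 0 reads with enoxaparin and 71, 13 and 37 without (log2 fold change -5.24), and it has no anchor. NONMMUT116793.1, at the moved position over Tnc, which encodes the extracellular matrix protein tenascin C, had 2, 0 and 0 against 17, 11 and 14 (-4.50). Both missed the threshold whichever 1 library was left out. NONMMUT118151.1 on chromosome 5 was better covered, with 10, 9 and 5 reads against 64, 107 and 75 (-3.58), and missed it only without LPS_ES_PMMA replicate 1. NONMMUT148313.1, beside the group over Tnfrsf1b on chromosome 4, had 4, 1 and 2 against 12, 20 and 26 (-3.28) and passed in 1 of the 6 fits that leave out 1 library, being filtered out of another.

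The Ensembl features shown at the start were in the same range. Gm34816 had 41, 17 and 17 reads with enoxaparin and 2, 0 and 0 without (log2 fold change 4.66 ± 0.83 SE, edgeR adjusted p = 0.0242). Gm39323 had 12, 6 and 20 against 0, 0 and 1 (4.57 ± 0.89 SE, edgeR adjusted p = 0.0319). Its span, introns included, is over exons of C1qtnf5, Mfrp, Rnf26 and Gm49380 at the moved position. Gm37703 had 7, 2 and 3 reads against 42, 30 and 12, a log2 fold change of -3.18 (edgeR adjusted p = 0.0373). The groups of each of the 3 do not overlap. Gm34816 passed in 1 of the 6 fits that leave out 1 library, and Gm39323 missed the threshold whichever 1 was left out.

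Of all 139 called features, 48 lie between agreeing anchors, and 36 of these (75%) are over a coding exon when moved, 14 (29.2%) when moved the other way and 2 as listed. For the called higher features the counts are 17 of 20 when moved and 9 the other way, and for the called lower ones 19 of 28 and 5. A further 65 called features have no anchor within reach. Between agreeing anchors, 57.3% of the 1219 tested features were over a coding exon when moved and 30.4% when moved the other way. For the 698 features there with over 100 reads, the shares were 67.6% and 30.7%.

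NONMMUT104330.1, the lncRNA that the series names in its title, is in the class, at chr18:35055575-35087617 (1516 nt). It had 23 reads in LPS_PMMA replicate 1 and 0 in each of the other 5 libraries, so it did not pass the filter. Without a filter, the edgeR adjusted p was 0.349. In the authors' deposited table its p-value is 0.0201 and its q-value 0.259.

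The authors' deposited table labels 464 features of the class UP (4.49%) and 141 DOWN (1.37%), where it labels 4.33% and 2.49% of all features so. Of these 605, 141 have a q-value under 0.05 in the authors' deposited table. Of the 139 called here, 75 of the 76 higher are labelled UP in the authors' deposited table and 53 of the 63 lower are labelled DOWN.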

How the data were processed

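The deposited table gives, per the file headers, whole-number counts of reads per transcript, FPKM, and the authors' log2 fold change, p-value and q-value for LPS_ES_PMMA against LPS. The file's own name ties the authors' comparison to edgeR. No source used here states its version, the aligner, the counter or the use of strand. The submitters' processing notes name the build mm10. Reads of overlapping or antisense features cannot be told apart.

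From the deposited counts, low features were removed over the whole table by filterByExpr, and TMM factors scaled the libraries. The filter asked for 15 reads in total and for a minimum count per 1000000 unscaled table reads in at least 3 libraries. That minimum equals 10 reads in a library of median size. The quasi-likelihood F-test of edgeR 4.0.16 in R 4.3.3 compared the groups, adjusted by Benjamini-Hochberg over all 8873 features tested, at 0.05. The prior count was 0.125, and an approximate standard error was taken as the size of the fold change (log2) divided by the root of F. CPM are counts per 1000000 TMM-scaled table reads and are not corrected for length. Table reads were 1123551 to 3697638 a library, so 3 reads equal 0.729 to 1.52 CPM. Bounds against 0 reads use 3 counts over the group and cover counting error only. Replicates of a group differed by more than sampling noise (chi-square per degree of freedom 4.32 to 8.33 over features of the class). The script was tested on simulated data. Single values per library were compared with exact two-sided permutation tests. The FPKM values are the authors', with the log2(FPKM + 0.1) and log2(FPKM + 1) scales used in limma 3.58.1 and DESeq2 1.42.0 on counts as alternatives.

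Positions were compared with GENCODE M21. The moves of position and the lists by moved position were added after the data were seen. Promoters are RefSeq windows found by symbol, with 250 bases before and 50 after the start. The listed positions carry no strand and no genome of the build was at hand, so windows at the features' own starts were not used here.

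The members, the 12 gene lists and the tests were chosen with earlier results of these data known. Features named are the 5 of highest mean FPKM, the 12 that rose most and the 12 that fell most among called features with a group mean FPKM of at least 1 and groups that do not overlap (1 per locus), those called in all 6 fits that leave out 1 library, up to 4 per list with the called ones, and NONMMUT104330.1. Features of the lists that were not called are mostly given by counts. Features of runs and Ensembl features with a sequence were named outside this rule, after their values were seen.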

Additional observations from a re-analysis of the deposited data

How the results depend on the processing

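The count of called features labelled intergenic was 139. It was 139 with RLE factors, 137 with column totals, 116 with the totals implied by FPKM, 151 with DESeq2 (75 higher and 76 lower), 159 with robust edgeR, 142 in a fit of these features alone (60 higher and 82 lower) and 136 without assembled features. It fell to 66 with a mean FPKM of at least 1 as the filter (27 higher and 39 lower), 58 with no filter on low counts (26 and 32), 55 and 42 with limma on log2(FPKM + 0.1) and log2(FPKM + 1), and to between 13 and 45 without 1 library. The count of called loci, 138, was 15 to 49 without 1 library. The median log2 fold change of 0.14 was 0.92 with column totals and 0.56 with the totals implied by FPKM, and 0.11 to 0.26 without 1 library. The share of reads differed by 10.2 percentage points between the groups and by -3.35 without the 5 features of highest FPKM, of which NONMMUT118967.1 is 1.

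With the replicate number as a block, 11 features were called (3 higher and 8 lower). The numbers did not pair the samples: deviations from the group means correlated at -0.02, -0.03 and -0.09 between same-numbered libraries. For loci, overlap on either strand could not differ from the value given, since no strand is listed. Over single features and settings, 910 values kept their side of the threshold, 222 lost it and 10 gained it, with 0 reversed. The 910 include uncalled features that stayed uncalled, and all 222 losses fall on called features. The 910 are therefore no measure of how stable the calls are. Depth limits the scarce features most: the median standard error of a log2 fold change was 0.51 in the third with the fewest reads and 0.31 in that with the most.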
